A study of Mus musculus with 6 samples.

Results

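Scx, the transcription factor that marks tendon precursors, and 7 other genes of the tendon program were followed in mouse forelimb progenitors taken from distal and proximal positions. The 8 genes (Scx, Mkx, Tnmd, Thbs2, Thbs4, Tnc, Htra3 and Postn) were found by symbol among the 13158 genes of the deposited count table, and collagens and small leucine-rich proteoglycans were set aside. The study sorted cells that carried a Sox9-CreERT2 lineage label (Rosa26-tdTomato) together with a ScxGFP reporter from dissected E13.5 forelimbs of C57BL/6 mice, given as wild-type and untreated in the labels. There were 3 distal and 3 proximal libraries, here called 1, 2 and 3 in each region after 3 numbers that the titles of both regions share, made by bulk MARS-seq, which counts the 3' ends of transcripts. The labels do not say whether libraries came from separate embryos or litters, or what a number shared between regions marks, so p-values speak only of the spread among these 6 libraries, part of which may be technical. The time at which CreERT2 was induced is not given in the sources used here, so the labelled cells are those that had Sox9 at some earlier moment or descend from such cells, and all cells of both regions passed through the same gate.

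Scx encodes a basic helix-loop-helix factor that binds E-boxes as a pair with E-proteins, and it appears in tendon precursors before the tendon matrix is laid down. TGF-beta and FGF signals induce it in limb mesenchyme, and Mkx, a homeobox factor, acts with it to build tendon matrix. Cells that have carried both Sox9 and Scx give rise to the sites where tendons join bone. Tnmd is a membrane glycoprotein of maturing tendon cells that depends on Scx in mice, while Tnc, Thbs2, Thbs4 and Postn encode matricellular proteins and Htra3 a secreted serine protease.

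Scx and Postn differed between the regions in opposite directions. Scx was 2.22-fold higher in distal libraries, and Postn was 4.07-fold lower there. Tnmd, Thbs4, Thbs2 and Tnc had log2 fold changes of -1.89, -1.14, -1.09 and -0.76 (distal over proximal) that did not pass the test, which was unpaired. With the number shared between regions added as a block, all of these passed (edgeR adjusted p = 0.025, 0.0066, 0.0496 and 0.0078). That fit called 465 genes, against 322 in the reported one, and whether the number pairs libraries is not stated. Mkx and Htra3 had log2 fold changes of 0.48 and 0.08. The test was edgeR's quasi-likelihood F test with Benjamini-Hochberg adjustment over the 9512 genes that passed a filter on low counts, at a threshold of 0.05. All 8 genes passed that filter. Of the 8, 2 were called, against 3.39% of all tested genes, with 1 called higher in distal libraries (1.11% of all tested genes) and 1 called lower (2.27%). The groups did not overlap for Scx, above, and for Tnmd, Thbs2, Tnc and Postn, below, while 7.53% and 8.67% of tested genes had distal libraries wholly above or wholly below proximal ones. The median log2 fold change of the 8 genes was -0.92, beside 0.01 for all tested genes.

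Promoters of 6 of the 8 genes were in the RefSeq table used (build GRCm38.p6), those of Tnmd, Thbs2, Thbs4, Tnc, Htra3 and Postn. The 250 bases before the start were searched for the E-box, the letters CANNTG, which read the same way on either strand as a pattern. Shown are the members with the most negative fold changes, Postn and Tnmd, and the members with the most E-boxes, Tnc and Htra3. Capitals mark E-boxes, and each sequence runs 5′ to 3′ towards the start of its own gene.
Postn (chr3:54360857-54361106, plus strand): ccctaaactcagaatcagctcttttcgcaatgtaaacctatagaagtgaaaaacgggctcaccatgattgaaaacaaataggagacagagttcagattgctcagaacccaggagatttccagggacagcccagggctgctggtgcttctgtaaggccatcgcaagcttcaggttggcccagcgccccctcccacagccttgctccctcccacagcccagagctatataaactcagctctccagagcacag
Tnmd (chrX:133850758-133851007, plus strand): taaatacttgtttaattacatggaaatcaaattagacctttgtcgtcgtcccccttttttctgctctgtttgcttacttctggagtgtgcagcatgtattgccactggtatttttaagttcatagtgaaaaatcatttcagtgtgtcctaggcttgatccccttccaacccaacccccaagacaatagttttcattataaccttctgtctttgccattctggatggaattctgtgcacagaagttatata
Tnc (chr4:64047016-64047265, minus strand): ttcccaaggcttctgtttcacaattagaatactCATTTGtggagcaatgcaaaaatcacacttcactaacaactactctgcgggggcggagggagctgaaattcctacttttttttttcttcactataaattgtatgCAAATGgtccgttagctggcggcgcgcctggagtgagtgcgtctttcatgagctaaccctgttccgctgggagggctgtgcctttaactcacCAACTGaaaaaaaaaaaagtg
Htra3 (chr5:35679781-35680030, minus strand): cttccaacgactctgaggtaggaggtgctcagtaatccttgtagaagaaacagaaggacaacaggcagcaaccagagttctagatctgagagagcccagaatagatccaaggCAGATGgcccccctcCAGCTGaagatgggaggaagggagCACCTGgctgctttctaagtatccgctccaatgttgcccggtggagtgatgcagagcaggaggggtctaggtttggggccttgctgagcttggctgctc
The windows of Postn and Tnmd held no E-box. That of Tnc held 3, beginning 217, 113 and 21 bases before the start, and that of Htra3 also 3, beginning 138, 123 and 99 bases before it. The windows of Thbs2 and Thbs4 held 1 each, at 246 and 115 bases. Among all 32851 promoter windows of this length in the table, 66.2% held at least 1 E-box and 12.2% held 3 or more. A match is a run of letters, not a measured binding site, and the second Postn and Tnc starts in the table were not used. The Postn window lies inside the RefSeq span of that gene (54359267 to 54391041), so it precedes an internal start. It also overlaps the span of the noncoding RNA gene Gm31095. The Htra3 window reaches slightly into its own gene's span, which ends at 35679813.

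Total counts were 1585631 to 2143795 in distal and 1709551 to 2623788 in proximal libraries, and the limit set by a count of 0, taken as 3 counts, was 1.08 to 2.01 CPM, the unit of the levels given here (counts scaled to library size, with TMM factors). Distal library 3 and proximal library 1 lay apart from the other libraries of their regions along the second principal component, which held 30.4% of the variance. Along the first, which held 41.2%, distal library 3 lay at -14.2, against -29.7 and -28.8 for distal libraries 1 and 2. Proximal library 1 lay at 14.0 there, against 29.0 and 29.7 for proximal libraries 2 and 3. Each thus lay nearer the other region than the rest of its own region did. Sox9, the other gene of the gate, had a mean of 333 ± 55.2 CPM in distal libraries, against 104 ± 18.5 CPM in proximal ones (SD, n = 3 each). Cartilage markers were called higher in distal libraries for 7 of 10 tested (1.11% of all tested genes), among them Sox9, Wwp2, Sox5 and Col9a1. Their summed level was 1375 to 2606 CPM in distal libraries, against 440 to 760 CPM in proximal ones. Skeletal muscle markers were called lower in distal libraries for 6 of 6 tested of 13 listed (2.27% of all tested genes), among them Msc, Actc1, Tnnt1 and Myod1. Their sums were 39.0 to 55.0 CPM in distal libraries, against 227 to 617 CPM in proximal ones. Muscle connective tissue markers were split, with Tbx5 and Tbx4 called higher and Osr1 called lower in distal libraries among 8 tested (3.39% of all tested genes). The 8 include Tcf4, an E-protein gene rather than a particular marker of that tissue, which was not called. No endothelial or macrophage marker passed the filter: their sums were 3.46 to 10.6 CPM in distal libraries, against 4.68 to 12.7 CPM in proximal ones, for endothelium, and 0.632 to 2.97 CPM in distal libraries, against 5.04 to 12.1 CPM in proximal ones, for macrophages, with Csf1r at 0 in all distal libraries. Perichondrium and osteoblast markers, a list that holds Postn, summed to 1090 to 1685 CPM in distal libraries, against 1612 to 3864 CPM in proximal ones. Most of that sum was Col1a1, named after its values were seen, at 835 to 1459 CPM in distal libraries, against 1307 to 3545 CPM in proximal ones. Col1a1 was not called (edgeR adjusted p = 0.37). Of the 5 tested genes of that list besides Postn, 1 was called (3.39% of all tested genes), Fgfr2, higher in distal libraries. Schwann cell and neural markers summed to 12.4 to 19.5 CPM in distal libraries, against 19.4 to 44.7 CPM in proximal ones, and blood cell markers to 1.26 to 11.9 CPM in distal libraries, against 1.10 to 80.2 CPM in proximal ones. Epidermis markers summed to 51.3 to 79.2 CPM in distal libraries, against 63.6 to 80.9 CPM in proximal ones. Most of that sum was Krt18, named after its values were seen, at 46.2 to 75.7 CPM in distal libraries, against 58.9 to 72.3 CPM in proximal ones. Krt5, Krt14, Krt8 and Epcam of that list did not pass the filter. In bulk libraries, fewer cells of a type and less RNA per cell cannot be told apart.

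**Figure D1:**
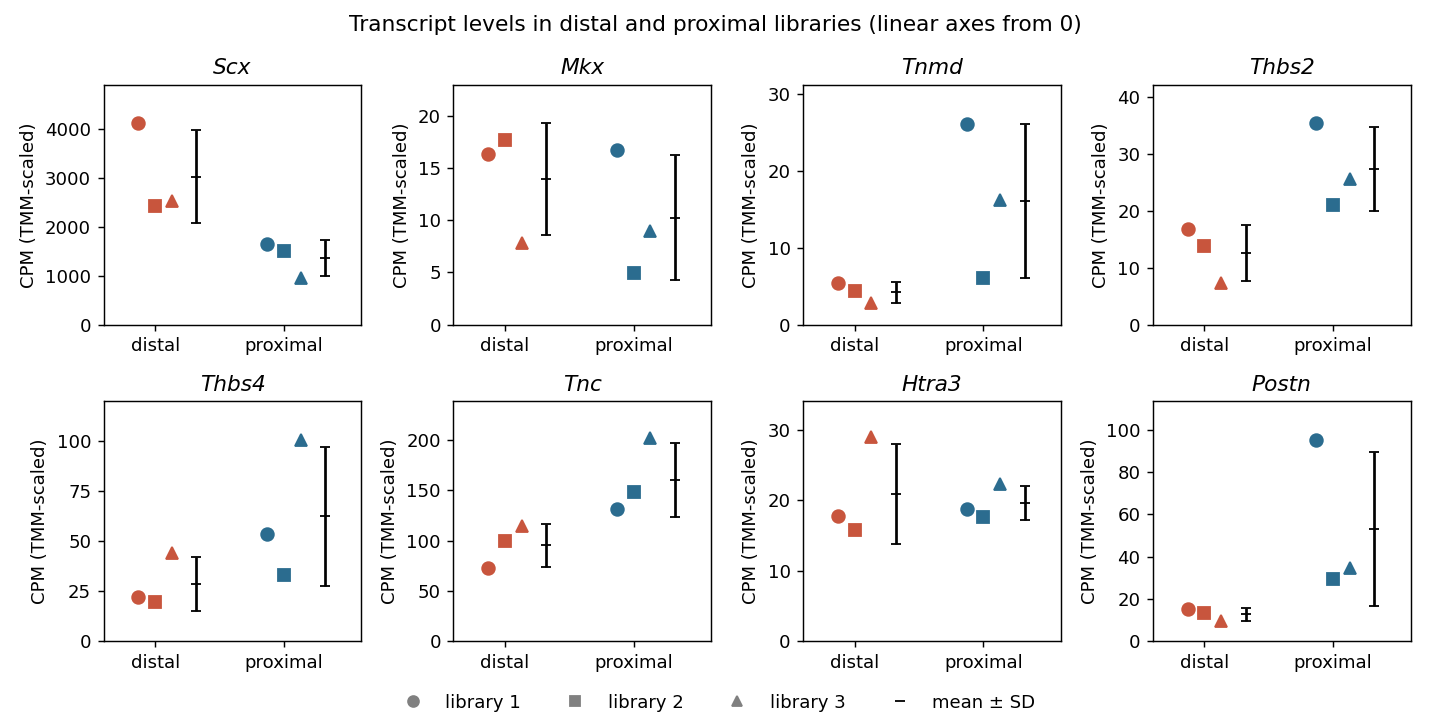
Levels of the 8 tendon program genes in CPM (TMM-scaled, linear axes from 0), with distal libraries in red on the left and proximal libraries in blue on the right; symbols are libraries 1 to 3 and bars are the mean ± SD over 3 libraries. Scx lies at 2416 to 4122 CPM in distal libraries, against 949 to 1643 CPM in proximal ones, whereas Postn lies at 9.47 to 15.3 CPM in distal libraries, against 29.3 to 95.0 CPM in proximal ones.

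Scx (chromosome 15, 76457411 to 76459468) had 4122, 2416 and 2529 CPM in distal libraries 1 to 3, against 1643, 1501 and 949 CPM in proximal libraries 1 to 3. Every distal library was above every proximal one, and distal library 1 stood well above the other two of its region. The means were 3022 ± 954 CPM in distal libraries, against 1364 ± 367 CPM in proximal ones (SD, n = 3 each). The log2 fold change was 1.15 (SE 0.25, 95% interval 0.59 to 1.71; edgeR adjusted p = 0.034). Counting error was small beside this spread, with exact 95% intervals of 4034 to 4212 CPM in distal library 1 and 913 to 986 CPM in proximal library 3. The call was lost without distal library 1 (log2 fold change 0.86, edgeR adjusted p = 0.096), proximal library 2 (1.22, 0.10) or proximal library 3 (0.94, 0.094).

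The RefSeq span of Scx lies inside that of Bop1, a ribosome biogenesis gene at 76452988 to 76477249 on the same chromosome. Whether counting used the strand is not stated in the sources used here. Bop1 had 78.2, 79.6 and 96.9 CPM in distal libraries 1 to 3, against 67.6, 74.5 and 86.3 CPM in proximal libraries 1 to 3. The regions overlapped, and the log2 fold change of 0.15 ± 0.18 (SE; adjusted p = 0.90 by edgeR) was not past the threshold. Scx was counted next to Sox9 in each library as well: there were 11.3, 8.97 and 6.93 Scx counts per Sox9 count in distal libraries 1 to 3, against 13.1, 16.1 and 10.1 in proximal libraries 1 to 3. These ranges overlapped, since distal library 1 exceeded proximal library 3.

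Mkx had 16.3, 17.7 and 7.80 CPM in distal libraries 1 to 3, against 16.7, 4.97 and 8.99 CPM in proximal libraries 1 to 3. High and low libraries occurred in either region, and the groups overlapped. These levels rest on 14 to 33 counts in distal and 9 to 25 counts in proximal libraries. The log2 fold change was 0.48 (SE 0.45, 95% interval -0.51 to 1.47; edgeR adjusted p = 0.86), and that interval holds both 0 and the value of Scx, 1.15.

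Tnmd, on chromosome X at 133851008 to 133865577, had 5.44, 4.42 and 2.79 CPM in distal libraries 1 to 3, against 26.1, 6.07 and 16.2 CPM in proximal libraries 1 to 3. The distal libraries were all lower, but distal library 1 and proximal library 2 each rested on 11 counts. Their exact 95% intervals, 2.72 to 9.74 CPM and 3.03 to 10.9 CPM, overlapped almost fully. The means were 4.22 ± 1.34 CPM in distal libraries, against 16.1 ± 10.0 CPM in proximal ones (SD, n = 3 each). The log2 fold change was -1.89 (SE 0.52, 95% interval -3.05 to -0.73; edgeR adjusted p = 0.0998). Without proximal library 2, the lowest proximal one, the edgeR adjusted p was 0.030 and the log2 fold change -2.27. DESeq2's Wald test also passed (adjusted p = 0.029). Tnmd did not pass without any other single library (edgeR adjusted p = 0.19 to 0.26) or with limma-voom (0.28).

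The 4 matricellular genes had negative log2 fold changes, and Postn alone passed the test. Postn (chromosome 3, 54359267 to 54391041), which encodes periostin, a fasciclin-domain protein of perichondrium and dense connective tissue, had 15.3, 13.3 and 9.47 CPM in distal libraries 1 to 3, against 95.0, 29.3 and 34.9 CPM in proximal libraries 1 to 3. No distal library reached a proximal one, and proximal library 1 stood far above the rest. The means were 12.7 ± 2.98 CPM in distal libraries, against 53.1 ± 36.4 CPM in proximal ones (SD, n = 3 each). In edgeR's fit the log2 fold change was -2.03 (SE 0.45, 95% interval -3.04 to -1.01; edgeR adjusted p = 0.040). Without proximal library 1 the log2 fold change was -1.34, still called (edgeR adjusted p = 0.023), and the call was lost without distal library 1, 2 or 3 (adjusted p = 0.13, 0.11 and 0.13) and with limma-voom (0.096).

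The summed level of skeletal muscle markers was 46.5, 55.0 and 39.0 CPM in distal libraries 1 to 3, against 495, 617 and 227 CPM in proximal libraries 1 to 3. The part of muscle and cartilage cells in the regional differences of the 8 genes was not tested. The Postn and Tnc spans also overlap those of the long noncoding RNA genes Gm31095 and 8030451A03Rik, which were not analysed here.

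Tnc (chromosome 4, 63959785 to 64047015) encodes tenascin C, a matrix glycoprotein of tendons and of muscle attachment sites. Its levels were 72.2, 99.9 and 114 CPM in distal libraries 1 to 3, against 131, 148 and 202 CPM in proximal libraries 1 to 3. The regions did not overlap, and library 3 was the highest of each. The log2 fold change was -0.76 (SE 0.22, 95% interval -1.23 to -0.28; edgeR adjusted p = 0.11). It passed without proximal library 1 (log2 fold change -0.88, edgeR adjusted p = 0.049) but not without any other single library (0.065 to 0.45). It also passed after removal of both proximal library 1 and distal library 3 (-1.03, 0.0094). Those libraries lay apart along the second principal component of these same data. Their removal raised the calls over all genes from 322 to 862, so that pass is no separate support for Tnc.

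Thrombospondins are matricellular glycoproteins, and Thbs4 is known from muscle-tendon junctions. Thbs4 (chromosome 13, 92751586 to 92794818) had 22.3, 19.6 and 44.0 CPM in distal libraries 1 to 3, against 53.5, 33.1 and 101 CPM in proximal libraries 1 to 3. Distal library 3 lay above proximal library 2, so the regions overlapped. The distal-over-proximal log2 value was -1.14 (SE 0.42, 95% interval -2.08 to -0.20; edgeR adjusted p = 0.28), and it was -0.58 without proximal library 3. Thbs2 (chromosome 17, 14665500 to 14694262) had 16.8, 13.9 and 7.24 CPM in distal libraries 1 to 3, against 35.5, 21.0 and 25.5 CPM in proximal libraries 1 to 3. All distal values were lower than all proximal ones, with a log2 fold change of -1.09 (SE 0.34, 95% interval -1.84 to -0.34; edgeR adjusted p = 0.16).

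Htra3 (chromosome 5, 35652026 to 35679813) had 17.8, 15.8 and 29.0 CPM in distal libraries 1 to 3, against 18.7, 17.7 and 22.3 CPM in proximal libraries 1 to 3. The groups overlapped, with distal library 3 the highest and distal library 2 the lowest of the 6, and the promoter with 3 E-boxes shown above belongs to this gene. The log2 fold change was 0.08 (SE 0.29, 95% interval -0.55 to 0.72; edgeR adjusted p = 0.98), and it turned to -0.22 without distal library 3.

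**Figure D2:**
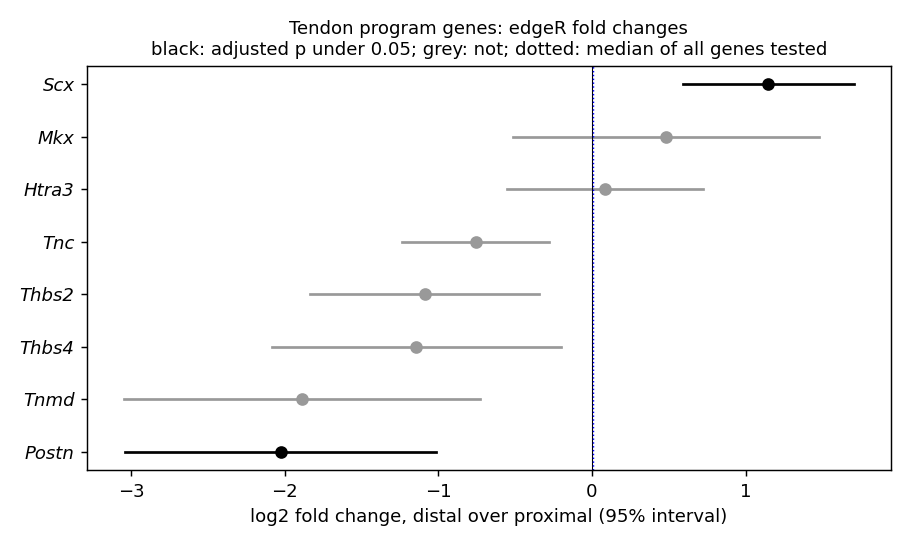
Log2 fold changes (distal over proximal, x axis) of the 8 tendon program genes with 95% intervals from edgeR, 3 libraries per region; black marks genes past an adjusted p of 0.05, grey the others, and the dotted line the median of all tested genes, 0.01. Scx at 1.15 and Postn at -2.03 are the black points, and the intervals of Mkx and Htra3 cross 0.

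The order of libraries within a region is given as a description, and some orders rest on few counts, such as 11, 7 and 5 for Tnmd in distal libraries 1 to 3. Tnmd, Thbs2 and Postn shared an order, with libraries 1, 2 and 3 from high to low in distal and 1, 3 and 2 in proximal samples, as 5.45% of tested genes did. Thbs4 and Htra3 also shared one, with library 3 highest, then 1, then 2 in each region, as 2.47% of tested genes did. Tnc ran from library 3 to 2 to 1 in each region (6.87% of tested genes), and Scx from 1 to 3 to 2 in distal and 1 to 2 to 3 in proximal samples (2.82%). Mkx had its own order, 2, 1 and 3 in distal and 1, 3 and 2 in proximal samples (7.19%).

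A ratio to Scx within each library does not depend on how libraries are scaled. Postn had 0.372, 0.549 and 0.375 counts per 100 Scx counts in distal libraries 1 to 3, against 5.78, 1.95 and 3.68 in proximal libraries 1 to 3. Tnmd had 0.132, 0.183 and 0.110 counts per 100 Scx counts in distal libraries, against 1.59, 0.404 and 1.71 in proximal libraries. Neither gene's regions overlapped on this scale. By the mean log2 ratio, with 0.5 counts added to each gene, the ratio to Scx was 8.01-fold lower in distal libraries for Postn, 7.10-fold for Tnmd, 4.87-fold for Thbs2, 4.62-fold for Thbs4, 3.71-fold for Tnc and 2.13-fold for Htra3. For these 6 genes every distal log2 ratio was below every proximal one, and the exact two-sided permutation p was 0.10, the smallest that 3 against 3 libraries can give (0.12 after Benjamini-Hochberg adjustment over 7 ratios). For Htra3 this separation rests on the added counts, since without them the ratio of distal library 3 lay just above that of proximal library 1. The regions overlapped for Mkx, at 1.54-fold lower (exact permutation p = 0.30). A ratio to Scx is lower wherever Scx alone is higher: 67.5% of 9511 tested genes also had all distal log2 ratios below all proximal ones, and the median difference over these 9511 genes was -1.13, beside -1.09 for Htra3, -2.83 for Tnmd and -2.28 for Thbs2.

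**Figure D3:**
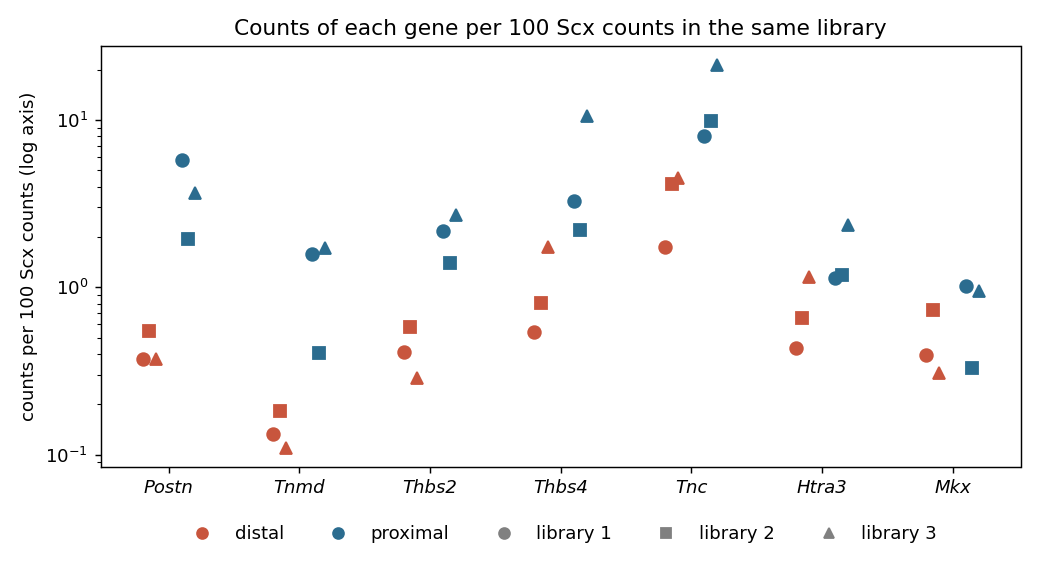
Counts of 7 tendon program genes per 100 Scx counts in the same library (log axis), distal libraries in red on the left of each pair and proximal in blue on the right; symbols are libraries 1 to 3. Distal points lie below all proximal points for every gene but Htra3 and Mkx, with Tnmd at 0.110 to 0.183 in distal libraries, against 0.404 to 1.71 in proximal ones.

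Related genes were taken from 10 lists of tendon regulators, signals and protein families. Outside the 8 genes these held 51 tested genes, of which 4 were called (7.84%, against 3.39% of all tested genes), 2 in each direction. C1qtnf3, a secreted C1q and TNF-related protein, had the lowest p among them: its level was 5.44, 1.26 and 1.67 CPM in distal libraries 1 to 3, against 72.9, 31.5 and 72.3 CPM in proximal libraries 1 to 3. The distal values rest on 11, 2 and 3 counts. The regions were far apart, at a log2 fold change (SE 0.49) of -4.30 by edgeR (adjusted p = 0.0010), and the call held in all 16 alternative fits. It was the 1 call among 8 tested of 18 listed other tendon matrix and sheath genes. The median log2 fold change of the 8 was -0.46. The other tested genes with the smallest p, the secreted peptide gene 1500015O10Rik (-1.38, edgeR adjusted p = 0.15) and the matrix glycoprotein gene Sparc (-0.64, 0.11), did not pass. Prg4 and Cilp of this list were removed by the filter and called in the fit without it. Prg4 had 19, 4 and 15 counts in distal libraries 1 to 3, against 1, 0 and 0 in proximal ones. Cilp had 0, 1 and 1 counts in distal libraries 1 to 3, against 5, 6 and 14 in proximal ones.

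Among relatives of Tnmd, which share the BRICHOS domain, 1 of 4 tested genes was called, against 3.39% of all tested genes. Lect1, which encodes chondromodulin of cartilage, averaged 69.5 ± 12.7 CPM in distal libraries, against 30.9 ± 6.11 CPM in proximal ones (SD, n = 3 each). This was a log2 fold change of 1.16 (SE 0.22; adjusted p = 0.018 by edgeR). Its fold change and that of Tnmd thus had opposite signs. Leaving out distal library 1 (edgeR adjusted p = 0.054) or proximal library 2 (0.093) ended the Lect1 call. Itm2a and Itm2b had log2 fold changes of 0.68 and -0.23.

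The thrombospondin, fasciclin-domain and HtrA families held 5 other tested genes, of which edgeR, DESeq2 and limma-voom called 0, with 1, Tgfbi, at an unadjusted edgeR p under 0.05, as were 10.8% of all tested genes. Thbs1 and Thbs3 had log2 fold changes of -0.49 and 0.35, Tgfbi, the fasciclin-domain relative of Postn, 0.56 (edgeR adjusted p = 0.29), and Htra1 and Htra2 -0.45 and 0.07. No other tenascin gene was tested.

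Of 7 tested transcription factors of the tendon list besides Scx and Mkx (median 0.21), edgeR called 0, with 3 at an unadjusted p under 0.05 (10.8% of all tested genes), while DESeq2 and limma-voom called 1 each, Six2. Six2, a homeobox factor found in limb tendons, had levels of 81.2, 69.5 and 161 CPM in distal libraries 1 to 3, against 185, 288 and 259 CPM in proximal libraries 1 to 3. The regions did not overlap, at a log2 fold change (SE 0.30) of -1.23 by edgeR (adjusted p = 0.057). Eya2, whose product pairs with that family, had 0.65 (edgeR adjusted p = 0.27). Eya1, of the same list, did not pass the filter. It had 2, 0 and 1 counts in distal libraries 1 to 3, against 18, 6 and 10 in proximal ones. Of the 7 partners and inhibitors of basic helix-loop-helix factors (median 0.23), edgeR and limma-voom called 0 and DESeq2 2, Id1 and Id4, which were also the 2 at an unadjusted edgeR p under 0.05 (10.8% of all tested genes). The genes Tcf3, Tcf4 and Tcf12 of the E-proteins, named for their role after their values were seen, had log2 fold changes of 0.01, 0.24 and -0.27, while the Id genes, whose products block such pairs, included Id1 at 0.81 (edgeR adjusted p = 0.095) and Id4 at 1.43 (0.27).

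TGF-beta and FGF signals are known to induce Scx, and their lists hold inhibitors of these signals as well as ligands and receptors. Of 11 tested TGF-beta genes (median 0.07), 0 were called by edgeR or limma-voom. DESeq2 called 1, Smad7, and 4 had an unadjusted edgeR p under 0.05 (10.8% of all tested genes). The feedback inhibitor Smad7 had a log2 fold change of 1.00 (edgeR adjusted p = 0.088) and the ligand Tgfb2 0.81 (0.12). Of 9 tested FGF genes, 2 were called (median 0.01), against 3.39% of all tested genes. The receptor gene Fgfr2 averaged 41.5 ± 2.27 CPM in distal libraries, against 20.3 ± 5.59 CPM in proximal ones (SD, n = 3 each). The log2 fold change was 1.03 (SE 0.24; edgeR adjusted p = 0.046). The feedback gene Spry4 averaged 28.2 ± 3.20 CPM in distal libraries, against 50.4 ± 3.65 CPM in proximal ones (SD, n = 3 each). In edgeR's fit the log2 fold change was -0.84 (SE 0.20; edgeR adjusted p = 0.045). Each call was lost without any single library but proximal 1, at adjusted p of 0.081 to 0.19 for Fgfr2 and 0.092 to 0.21 for Spry4. Spry4 also missed the threshold with DESeq2's Wald test (adjusted p = 0.061) and with scaling to library size alone in edgeR (0.11). Dusp6, another FGF feedback gene, named after its values were seen, had 74.7, 64.5 and 36.8 CPM in distal libraries 1 to 3, against 29.4, 22.1 and 29.5 CPM in proximal libraries 1 to 3. Its regions did not overlap, its log2 fold change of 1.12 ± 0.28 (SE) did not pass in edgeR (adjusted p = 0.060), and DESeq2 called it.

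**Figure D4:**
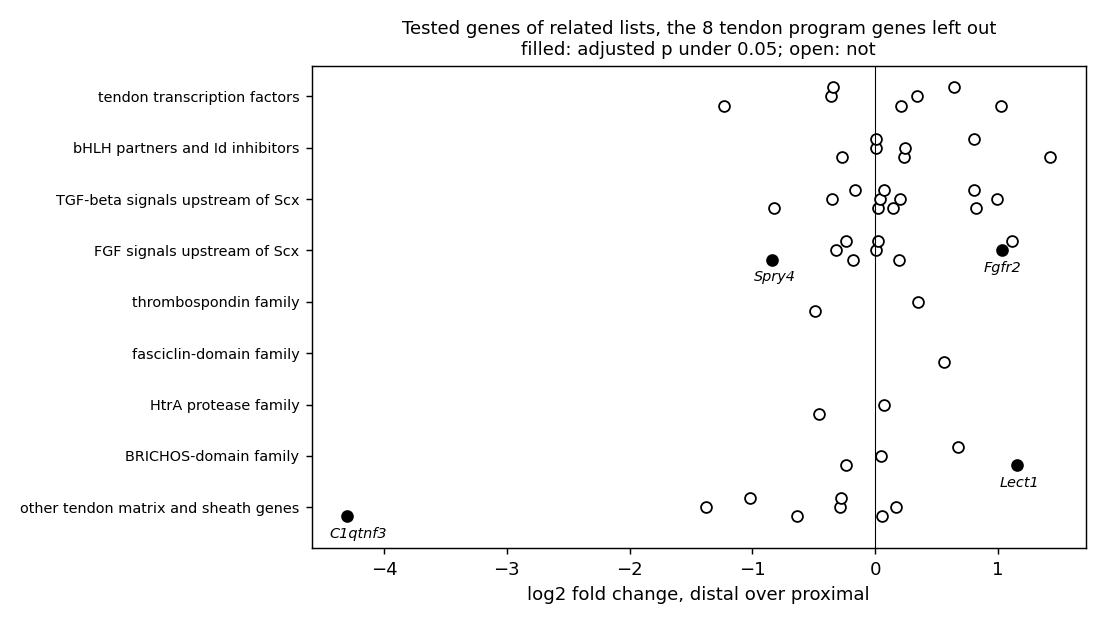
Log2 fold changes (distal over proximal, x axis) of tested genes in lists related to the tendon program, without the 8 genes themselves; filled points had an edgeR adjusted p under 0.05. The filled points are C1qtnf3 at -4.30, Spry4 at -0.84, Fgfr2 at 1.03 and Lect1 at 1.16.

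Genes whose levels ran most like each member over the 6 libraries were looked up among tested genes whose mean log2 CPM was 5 or more, predicted genes left out. For Scx these were Zranb1, Taldo1, Mpg, Cryz and Irs2, with Pearson r of 0.998, 0.976, 0.973, 0.963 and 0.962. Zranb1 stood at 46.5, 39.8 and 41.2 CPM in distal and 35.5, 34.2 and 30.2 CPM in proximal libraries 1 to 3, the same order as Scx but with a log2 fold change of 0.36. For Tnmd they were Fzd7, Fxr1 and Plp2 (r = 0.997, 0.985 and 0.982), for Postn Mrps24, Ino80e and Ddt (0.992, 0.991 and 0.988), and for Thbs2 Gxylt2, Impdh2 and Fth1 (0.985, 0.978 and 0.970). Thbs4 ran with Olfm1, Mxra8 and Inhba (0.988, 0.988 and 0.982), Tnc with Nrp2, Gpr137 and Mtch1 (0.990, 0.978 and 0.976), Htra3 with Zbtb7a, Rsrp1 and Gar1 (0.995, 0.981 and 0.968), and Mkx with Ppp2ca, Ppa1 and Fam103a1 (0.996, 0.990 and 0.990). Their adjusted p between the regions in edgeR's test was 0.11 or more. With 4542 to 4543 candidates and 6 libraries that share region and depth, these correlations describe these libraries only.

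**Figure D5:**
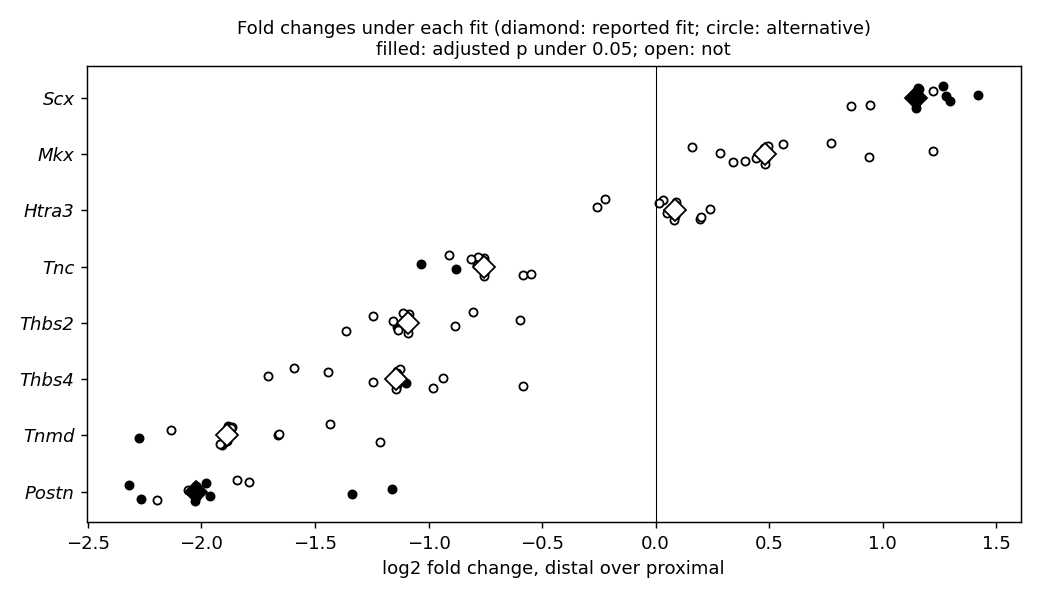
Log2 fold changes (distal over proximal, x axis) of the 8 tendon program genes in the reported fit (diamonds) and in 16 alternative fits (circles, 15 for Tnmd), filled where the adjusted p was under 0.05. The sign of the fold change held in every fit for all genes but Htra3, which ranged from -0.26 to 0.24, while Postn ranged from -2.32 to -1.16 and Scx from 0.86 to 1.42.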

How the data were processed

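RNA of sorted cells from 3 distal and 3 proximal E13.5 forelimb libraries was analysed. The submitters' processing notes list the build mm10 and the tools DESeq2, HTSeq, TopHat2, cutadapt 1.8.3 and bcl2fastq 2.17.1.14, with no role given for each. Annotation, strand setting and handling of molecular identifiers are not stated there. The table that the authors deposited gives raw counts for each gene, with a sum of at least 6 over the libraries, and normalized counts. The normalized counts are a signal that the authors made by dividing each library by 1 size factor, equal to median-ratio factors within a relative tolerance of 1e-06, and no test used them. No column belonged to another series and no row lacked a gene name. Rn45s, 2.20% to 11.7% of counts, was kept, and left out in an alternative. The highest share was that of proximal library 1, and the other libraries held 2.20% to 6.81%.

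The counts were tested with edgeR 4.0.16 in R 4.3.3: TMM scaling, filterByExpr (minimum count 10, minimum total 15), robust glmQLFit and glmQLFTest with region as the only term, and Benjamini-Hochberg adjustment over all tested genes. Fold changes are distal over proximal. SE was taken as the size of the log2 value divided by the root of F. Exact 95% Poisson intervals on counts speak of counting error alone. In simulated counts for this comparison, the test recovered 43 of 100 genes with a true log2 change of 1 and 97 of 100 with one of 2. Of called genes, 6.04% were unchanged ones (9352 genes tested, 1 draw). Genes were drawn independently with region as the only difference. These rates need not hold for the real libraries, which also differed along the second principal component. The ratio to Scx was tested by exact permutation. Log2 CPM used a prior count of 2. Alternatives included limma 3.58.1 and DESeq2 1.42.0.

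The 8 genes, the lists and the tests were chosen with earlier results of these data known. Named genes were the 8 members, called genes of each list (up to 4 of each marker list) and otherwise those with the smallest p, Sox9, Bop1, and the genes most like each member. Gene spans and promoters are from RefSeq on GRCm38.p6. Of several promoter windows of a gene, the outermost whose bases after the start lie in a GENCODE transcript was used.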

Additional observations from a re-analysis of the deposited data

How the results depend on the processing

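Direction held in every alternative fit for Scx, Mkx, Tnmd, Thbs2, Thbs4, Tnc and Postn. All 7 ratios to Scx stayed negative in their 9 alternatives, of which the replicate block leaves the value unchanged. That sign says little about each gene, since the median difference over 9511 tested genes was also negative (-1.13). Htra3 turned negative (-0.22) without distal library 3, and also (-0.26) when that library and proximal library 1 were removed. Scx was called in 13 of 16 alternatives and Postn in 12. With libraries left out singly, log2 fold changes ranged from 0.86 to 1.30 for Scx, -2.32 to -1.34 for Postn, -2.27 to -1.43 for Tnmd, -0.91 to -0.55 for Tnc and -0.22 to 0.24 for Htra3. Members called then ranged from 0 to 3, other list genes called from 1 to 8, and all genes called from 171 to 334 (42 to 114 higher and 114 to 220 lower in distal libraries). The lowest counts of all genes were 171 without distal library 1, 174 without proximal library 2, 190 without proximal library 3 and 210 without distal library 2. With both distal library 3 and proximal library 1 removed, 862 genes were called (441 higher, 421 lower), among them 14 list genes and Tnc at -1.03. Those libraries lay apart in these same data, so that fit is no independent check, and the cause of the rise was not tested. DESeq2's Wald test called Tnmd (-1.91) and 8 list genes. Limma-voom called 1 member, without Postn (-1.79), and the fit with no filter 7 list genes. Tnmd was not tested under a filter of 10 CPM in 3 libraries.

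Same-numbered libraries deviated together for numbers 1 and 3 but not 2 (correlations of 0.35, 0.48 and -0.14). The value for number 3 was the highest of all, while distal library 2 correlated best with proximal library 1 (0.36). Deviations from a mean over 3 libraries depend on each other, so these correlations cannot show whether the numbers pair libraries. The labels do not say what a shared number marks, and the reported fit treated the libraries as unpaired. With the number as a replicate block, 465 genes were called (184 higher and 281 lower in distal libraries), among them 6 members, and 11 list genes. Thbs2 (-1.14), Thbs4 (-1.10), Tnc (-0.75) and Tnmd (-1.88) then passed besides Scx and Postn, at edgeR adjusted p of 0.0496, 0.0066, 0.0078 and 0.025. Counts of 5 to 45 per library limit Tnmd, and 9 to 33 limit Mkx.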
